A study of Canis lupus familiaris with 25 samples.

Results

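The 58 genes described here are cell cycle genes in 2 classes, 23 genes that are active in S phase, when DNA is copied, and 35 genes that are active in G2 phase and mitosis (G2/M), when the copied chromosomes are separated. They were chosen by symbol, and all 58 were found among the 24532 genes of the 3′ RNA-Seq table. Their levels were followed tumor by tumor in 2 common glandular perianal tumors of the dog, the hepatoid gland adenoma (HGA), a benign tumor, and the apocrine gland anal sac adenocarcinoma (AGASAC), a malignant one.

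A cell that commits to division first turns on the genes of the E2F transcription factors, which cover the loading of the MCM helicase onto DNA, the supply of nucleotides and the copying of DNA at the fork. Later, in G2/M, the kinase CDK1 with its B cyclins, the Aurora and Polo kinases, the kinetochore, the spindle motors and the anaphase-promoting ubiquitin ligase separate the chromosomes, and the cell is then cut apart in cytokinesis. Since most of these genes are little used in resting cells, their RNA in a tissue is widely read as a sign of how many cells are cycling, and pathologists count mitoses or MKI67-stained nuclei for the same purpose.

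RNA of 25 archival formalin-fixed, paraffin-embedded (FFPE) tumor samples was read with QuantSeq 3′, a method that gives about 1 tag from the 3′ end of a transcript. There were 10 HGA from dogs of 8 to 14 years (6 intact and 4 neutered, 5 male and 5 female), 11 primary AGASAC from dogs of 8 to 12.5 years (2 intact and 9 neutered, 6 male and 5 female) and 4 sublumbal lymph node metastases from the dogs of primary AGASAC 1 to 4. These are spontaneous tumors of many breeds with no treatment named in the labels, and no normal gland was sequenced. Each sample was a piece of whole tumor, so fewer cycling cells and less cell cycle RNA per cycling cell cannot be told apart.

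Counts on genes were between 1562347 (HGA 4) and 6389555 (HGA 1) per sample. Levels are given in CPM, the counts of a gene per 1000000 counts of its sample, on a scale shared by the 25 samples. A gene at 0 could still be present at up to 3 counts, and this limit lay between 0.543 and 1.84 CPM by sample. The share of RNA fragments over 200 bases (DV200) was 70.5% to 92.7% in HGA, 70.2% to 84.4% in primary AGASAC and 71.8% to 82.9% in the metastases. Markers of the gland epithelia matched the labels, as the summed level of the luminal markers, in which KRT7, KRT8, KRT18, KRT19 and EPCAM were found and MUC1 was not, was 410 to 731 CPM in HGA and 3556 to 6221 CPM in primary AGASAC. The 6 basal and reserve cell markers, such as KRT14 (log2FC 11.2) and KRT5 (log2FC 7.92), summed to 3174 CPM or more in HGA and to 67.3 CPM or less in primary AGASAC.

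The 58 genes were a small share of the RNA, 0.0611% to 0.254% of the counts in HGA, 0.121% to 0.275% in primary AGASAC and 0.167% to 0.239% in the metastases. The 23 S phase genes summed to 377 to 1577 CPM in HGA (median 509), 430 to 1086 CPM in primary AGASAC (median 748) and 690, 895, 817 and 904 CPM in metastases 2, 1, 4 and 3. The 35 G2/M genes summed to 255 to 1186 CPM in HGA (median 369), 560 to 1354 CPM in primary AGASAC (median 897) and 847, 875, 877 and 1291 CPM in metastases 2, 1, 4 and 3. The median of primary AGASAC was thus 1.47 times that of HGA for the S phase genes and 2.43 times for the G2/M genes.

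**Figure D1:**
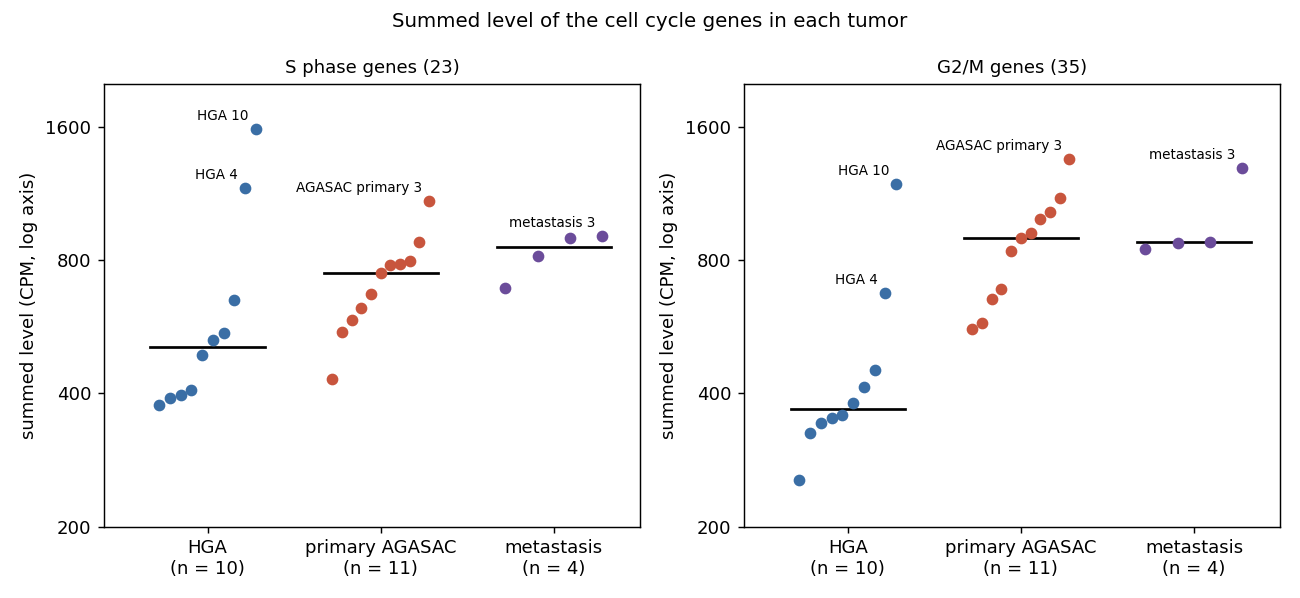
Summed level of the 23 S phase genes (left) and the 35 G2/M genes (right) in each sample, in CPM on a log axis, with a point for each tumor and a line at the group's median. HGA 10 and HGA 4 lie far above the other HGA in both panels, and every primary AGASAC lies above the other 8 HGA for the G2/M genes, but only 7 of 11 do so for the S phase genes.

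The ranges of HGA and primary AGASAC overlapped in both sums, in the G2/M sum through 2 HGA alone. HGA 10 had 1577 CPM of S phase and 1186 CPM of G2/M genes, and HGA 4 had 1161 and 672 CPM. All 11 primary AGASAC were below both of these HGA in the S phase sum, and 10 were below HGA 10 and 3 below HGA 4 in the G2/M sum. In the other 8 HGA, the highest S phase sum was 650 CPM and the highest G2/M sum was 451 CPM. AGASAC primary 3 was the highest primary AGASAC in both sums, with 1086 and 1354 CPM. In HGA the S phase sum, with PCNA in it, was above the G2/M sum, with a ratio of 1.05 to 1.73 (median 1.39). The ratio was 0.514 to 1.21 (median 0.812) in primary AGASAC and 0.700 to 1.02 in the metastases.

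A single gene took a large part of each sum. PCNA, the sliding clamp of the replication fork, which also serves DNA repair, made up 40.2% of the mean S phase sum in HGA and 28.2% in primary AGASAC. NUSAP1, a spindle microtubule protein, made up 33.6% of the mean G2/M sum in HGA and 19.1% in primary AGASAC. Without PCNA, the S phase sum was 252 to 888 CPM (median 312) in HGA and 340 to 774 CPM (median 508) in primary AGASAC. In every HGA this sum without PCNA was below the G2/M sum. It was 252 against 255 CPM in HGA 9 and 888 against 1186 CPM in HGA 10. With PCNA left out of the S phase sum alone, the ratio was thus below 1 in every HGA. NUSAP1, with a median of 163 CPM in HGA, was kept in the G2/M sum here. The ratio with both genes left out was not taken, so these values do not show that the ratio above 1 rested on PCNA. Because a 3′ library gives about the same number of reads for a long and a short transcript, CPM were not divided by length, and differences in how well each 3′ end was captured remain in these shares.

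In HGA versus primary AGASAC, no cell cycle gene passed as higher in HGA and 9 of the 50 tested passed as lower, which were the S phase genes E2F1, MCM2, MCM3 and MCM6 and the G2/M genes KIF2C, AURKB, RACGAP1, CDC20 and HMMR. A gene was called at an adjusted p (padj) of at most 0.05 by Benjamini-Yekutieli over all genes tested (edgeR's quasi-likelihood test) and a log2 fold change (log2FC, HGA relative to AGASAC) of at most −1 or at least 1. The tumor types differed widely, as 25.1% of the 12070 genes tested were called, and 12.5% were called as lower in HGA. The S phase genes were called lower in 4 of 20 and the G2/M genes in 5 of 30, so the share of called genes was not far from that of all genes. With Benjamini-Hochberg in place of Benjamini-Yekutieli, 6 S phase and 12 G2/M genes were called lower, beside 16% of all genes. The direction of the cell cycle genes was less mixed than that of all genes. The log2FC was negative in 30 of 30 G2/M genes and 14 of 20 S phase genes, with medians of −1.25 and −0.62, beside a median of −0.03 and 6220 negative values over all 12070 genes. MELK (0.00) and FOXM1 (−0.01) were counted as negative although close to 0, and they turned positive in 13 and 12 of the 21 fits that left out a tumor.

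**Figure D2:**
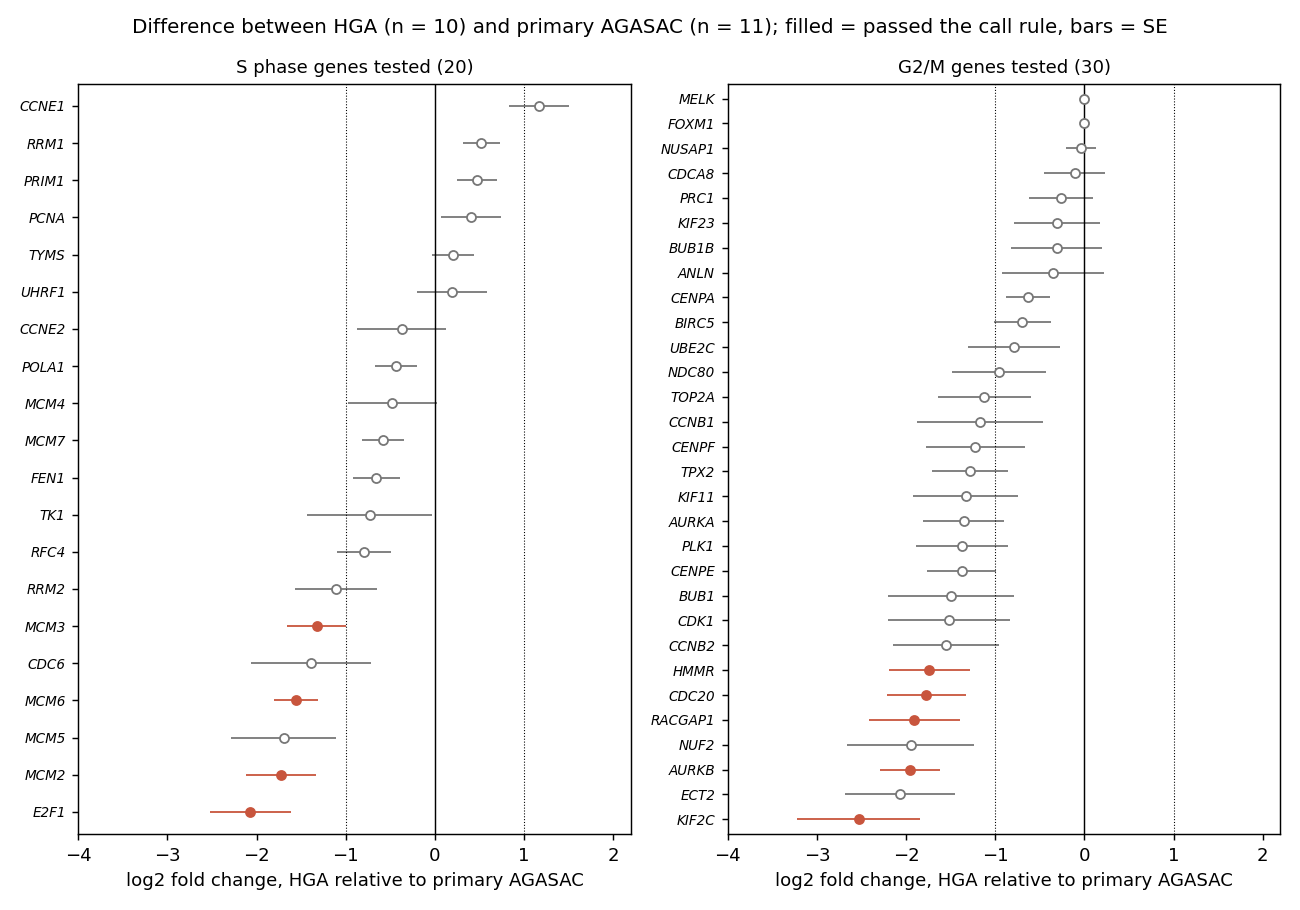
The log2FC of HGA (n = 10) relative to primary AGASAC (n = 11) for the 20 S phase genes (left) and the 30 G2/M genes (right) that were tested, with bars for the standard error (none for MELK and FOXM1) and filled points for called genes. All G2/M genes lie at or left of 0, from −2.53 for KIF2C to about 0 for MELK and FOXM1, and 6 S phase genes lie right of 0, CCNE1 farthest at 1.17.

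In 0 of the 50 genes were the CPM ranges of the 2 tumor types apart, while they were apart in 9.13% of all genes tested (1102 genes). HGA 10 was the highest HGA in 11 of 20 S phase and 22 of 30 G2/M genes, beside 19.97% of all genes, and HGA 10 and HGA 4 were together the 2 highest HGA in 10 of 20 and 18 of 30 genes, beside 6.404% of all genes. Without HGA 10, 8 S phase and 14 G2/M genes were called, all lower in HGA, and the median log2FC was −1.10 and −1.79. The count over all genes also rose in that fit, from 3032 to 3373, of which 1708 were lower in HGA. Without HGA 4, 5 S phase genes, of which 4 were lower, and 5 G2/M genes were called. The count of 5 G2/M genes also fell to 2 without HGA 2, 3, 5, 6 or 7 or AGASAC primary 3 or 6, and to 3 without HGA 1 or 9 or AGASAC primary 7, 9 or 11. AURKB, CDC20, E2F1, MCM2, MCM3 and MCM6 stayed called in each of the 21 fits that left out a tumor, while KIF2C lost its call in 15, RACGAP1 in 13 and HMMR in 9.

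HGA 10 was the only sample of RNA extraction batch 9, and its library was the only HGA in the second of the naming series of sequencing files. That series also held AGASAC primary 5 to 11, while the other HGA and AGASAC primary 1 to 3 were in the first, so the naming series largely cannot be told apart from the tumor type. In the 3 batches with at least 2 tumors of each type, the median log2FC of the S phase and G2/M genes was −0.75 and −1.53 in batch 5 (3 HGA and 3 AGASAC), −0.98 and −1.77 in batch 6 (3 and 2) and −1.48 and −1.81 in batch 8 (2 and 3). Batch 7 held 1 tumor of each type and gave no test. AURKB in batch 8 was the only one of the 58 genes called within a batch, beside 262, 637 and 338 of all genes in batches 5, 6 and 8. In a fit with the extraction batch as a term, 7 S phase and 16 G2/M genes were called, all lower in HGA. Over all 12070 genes, 3003 were called, of which 1498 were lower. HGA 10, as the lone sample of its batch, adds nothing to that fit. AGASAC primary 10 and 11, the only samples of batch 4, add nothing to its difference between the tumor types.

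The MCM2 to MCM7 proteins form the helicase that opens DNA at replication origins, and of the 10 genes of origin licensing and helicase, 7 were tested, all with a negative log2FC (median −1.39), and 3 were called. MCM6 was at 4.25 to 20.3 CPM in HGA (median 11.7), 16.9 to 62.0 CPM in primary AGASAC (median 34.4) and 50.0, 30.5, 43.4 and 37.1 CPM in metastases 1 to 4. Only HGA 4 reached above the lowest AGASAC, primary 9, and HGA 10 did not. The log2FC of MCM6 was −1.56 ± 0.25 (SE) with a padj of 0.000198 by edgeR. MCM2 was at 2.17 to 30.1 CPM in HGA (median 5.07), 15.8 to 41.8 CPM in primary AGASAC (median 26.2) and 36.7, 33.4, 42.1 and 33.5 CPM in the metastases. Here HGA 10, with 30.1 CPM, was the only HGA above the lowest AGASAC, and the next HGA had 14.1 CPM (log2FC −1.72 ± 0.39, edgeR padj 0.00865). MCM3, which was named for its call although it is not among the 5 S phase genes with the largest log2FC, ran from 1.82 to 20.3 CPM in HGA (median 8.71) and from 13.7 to 41.8 CPM in primary AGASAC (median 23.1), with a log2FC of −1.33 ± 0.33 (edgeR padj 0.0183).

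MCM5 lay between 0 and 4.11 CPM in 9 HGA and at 39.6 CPM in HGA 10, which was above all 11 primary AGASAC (9.18 to 37.1 CPM, median 15.6). With that tumor its log2FC was −1.70 ± 0.59 (edgeR padj 0.204), and without it −3.06 (padj 1.1e-05). CDC6, which loads the helicase, was at 0 to 13.3 CPM in HGA (median 1.23, with 0 counts in 3 of 10), again highest in HGA 10, and at 1.05 to 17.5 CPM in primary AGASAC (median 6.95). It did not pass the test (log2FC −1.39 ± 0.67, edgeR padj 0.921). MCM4 had a median of 4.99 CPM in HGA and 18.7 CPM in primary AGASAC but reached 69.2 CPM in HGA 10, more than in any AGASAC, and MCM7 reached 71.3 CPM in HGA 4, with medians of 28.1 and 51.0 CPM. Their log2FC were −0.48 and −0.58, and neither was called. GINS2, CDT1 and CDC45 had too few counts to pass the filter of edgeR, with at most 55, 41 and 31 counts in any primary tumor. DESeq2, which was run without a filter on low counts, called GINS2 and CDT1 as lower in HGA. In HGA the 3 genes stood at 0 counts in 6, 5 and 5 of 10 tumors.

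E2F1, the transcription factor that opens the S phase program, was the S phase gene with the largest log2FC. It was at 0.411 to 12.9 CPM in HGA (median 2.16), 5.55 to 21.1 CPM in primary AGASAC (median 11.4) and 15.6, 10.6, 23.2 and 15.7 CPM in the metastases. HGA 10 was the only HGA above the lowest AGASAC, and the log2FC was −2.07 ± 0.45 (edgeR padj 0.00607). CCNE1, the cyclin E that drives CDK2 into S phase, went the other way. It was at 4.92 to 27.5 CPM in HGA (median 12.1) and 0.860 to 10.4 CPM in primary AGASAC (median 6.23), and 9 of 10 HGA, HGA 4 excepted, lay above the AGASAC median. Its log2FC of 1.17 ± 0.34 missed the call (edgeR padj 0.061), and it passed with DESeq2 (padj 0.0319) and without HGA 4 (log2FC 1.26, edgeR padj 0.0309). CCNE2, the other cyclin E, had a log2FC of −0.37 and reached 73.5 CPM in HGA 10. UHRF1, which reads hemimethylated DNA behind the fork, was among the S phase genes with the smallest difference, at 4.24 to 55.0 CPM in HGA (median 12.6) and 7.46 to 40.9 CPM in primary AGASAC (median 13.7, log2FC 0.19 ± 0.39, edgeR padj 1).

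Of the 5 genes of DNA synthesis at the fork and the 4 of nucleotide supply, all were tested. None was called by edgeR or DESeq2. At an unadjusted p under 0.05 (edgeR) were 5 of them, beside 6477 of all 12070 genes. PCNA was at 86.3 to 689 CPM in HGA (median 168), 89.5 to 313 CPM in primary AGASAC (median 193) and 229, 167, 213 and 231 CPM in the metastases. HGA 10 (689 CPM) and HGA 4 (599 CPM) lay above every AGASAC, the rest of HGA lay within or below their range, and the log2FC was 0.41 ± 0.34 (edgeR padj 1). FEN1, which trims Okazaki fragments, POLA1, the catalytic subunit of the polymerase that starts each of them, and RFC4, a part of the loader of PCNA, had log2FC of −0.66, −0.43 and −0.80. PRIM1, the primase, was the other fork gene above 0 (log2FC 0.47), and all 10 HGA (32.7 to 62.7 CPM) lay above the AGASAC median of 28.1 CPM, although not above its highest value of 49.8 CPM except in HGA 4. TK1, the thymidine kinase that salvages thymidine, ran from 0 CPM in 1 HGA to 77.0 CPM in HGA 10 with a median of 3.41 CPM, beside 9.37 to 50.2 CPM in primary AGASAC (log2FC −0.73). RRM2, the small subunit of ribonucleotide reductase, was at 7.29 to 83.9 CPM in HGA (median 10.4) and 14.2 to 74.4 CPM in primary AGASAC (median 55.4). Only HGA 10 and HGA 4 were above the lowest AGASAC, and the log2FC was −1.11 ± 0.46 (edgeR padj 0.495, or 0.00867 without HGA 10). RRM1, the large subunit, was at 67.5 to 137 CPM in HGA and 27.4 to 119 CPM in primary AGASAC, and all 10 HGA lay above the AGASAC median of 63.4 CPM, although the log2FC of 0.52 ± 0.20 was not called (edgeR padj 0.371). TYMS, which makes thymidylate, was at 25.8 to 117 CPM in HGA (median 46.3) and 21.2 to 63.5 CPM in primary AGASAC (median 43.3), with a log2FC of 0.20 ± 0.23 (edgeR padj 1) that turned to −0.05 without HGA 10.

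**Figure D3:**
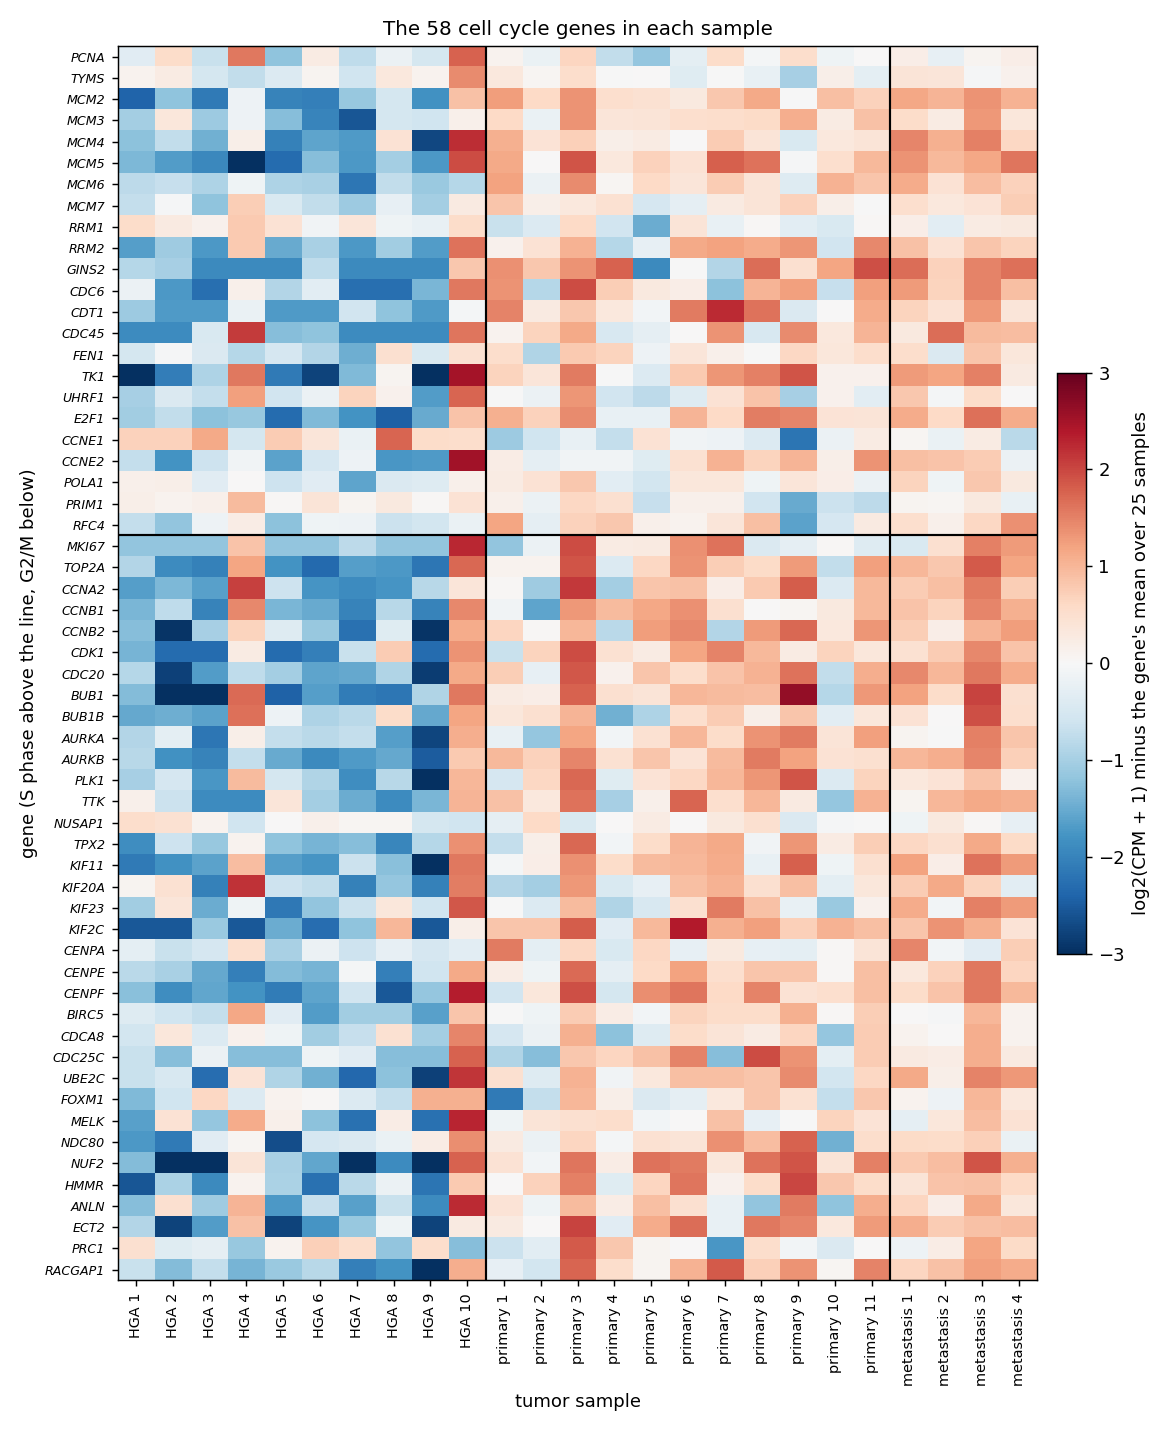
Level of each of the 58 genes (rows, S phase above the line and G2/M below) in each of the 25 samples (columns, groups divided by lines), as log2(CPM + 1) minus the gene's mean over all samples. Among the HGA, HGA 10 is red over most rows and HGA 4 over part of them, AGASAC primary 3 is red over nearly all rows, and CCNE1, RRM1 and NUSAP1 do not follow the pattern of the other genes.

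MKI67, the classic marker of cycling cells, was hardly read by these 3′ libraries. It had at most 26 counts in any primary tumor, was left out by the filter on low counts, so it has no test. It stood at 0 counts in 7 of 10 HGA and at 9.89 CPM in HGA 10, at 0 to 7.71 CPM in primary AGASAC (median 1.31) and at 0.649, 2.12, 5.47 and 4.47 CPM in the metastases. TOP2A, the topoisomerase that untangles chromosomes before anaphase, was much better read, with 8.98 to 166 CPM in HGA (median 13.9), 29.1 to 185 CPM in primary AGASAC (median 77.0) and 99.3, 87.0, 181 and 114 CPM in the metastases. HGA 10 and HGA 4 were the only HGA above the lowest AGASAC and were also above the AGASAC median, and the log2FC was −1.12 ± 0.52 (edgeR padj 0.802). Without HGA 10 it was −1.77 (edgeR padj 0.0313).

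CDK1 is the kinase that starts mitosis, and CCNB1 and CCNB2 are its cyclins. CDK1 was at 0 to 11.6 CPM in HGA (median 0.554, with 0 counts in 4 of 10), 2.11 to 18.4 CPM in primary AGASAC (median 6.86) and 5.84, 7.43, 12.5 and 7.99 CPM in the metastases. CCNB1 was at 0 to 9.89 CPM in HGA (median 0.541), 0.327 to 9.30 CPM in primary AGASAC (median 4.54) and 6.16, 5.31, 9.97 and 7.35 CPM in the metastases. HGA 10 was the highest HGA in both, HGA 8 was next in CDK1 and HGA 4 in CCNB1. Neither was called, with log2FC of −1.52 ± 0.68 for CDK1 (edgeR padj 0.703) and −1.17 ± 0.71 for CCNB1 (edgeR padj 1). CCNB2 had a median of 2.65 CPM in HGA and 14.2 CPM in primary AGASAC, with HGA 10 at 15.5 CPM the only HGA above the AGASAC median (log2FC −1.55 ± 0.59, edgeR padj 0.333). FOXM1, the transcription factor of many G2/M genes, did not differ beyond its spread, with 1.81 to 13.8 CPM in HGA (median 5.21), 0.603 to 13.0 CPM in primary AGASAC (median 6.95) and a log2FC of −0.01 (edgeR padj 1). CCNA2 and CDC25C, cyclin A and the phosphatase that activates CDK1, could not be tested for few counts, at most 67 and 25 in a primary tumor.

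CDC20 activates the anaphase-promoting ubiquitin ligase, and UBE2C hands it ubiquitin. CDC20 was at 1.70 to 41.7 CPM in HGA (median 7.20), 10.8 to 70.0 CPM in primary AGASAC (median 34.0) and 51.9, 37.7, 57.6 and 41.5 CPM in the metastases. HGA 10, at 41.7 CPM, was the only HGA above the lowest AGASAC, and the next HGA was at 10.5 CPM. The log2FC was −1.77 ± 0.44 (edgeR padj 0.0208). UBE2C reached 69.2 CPM in HGA 10, above all 11 primary AGASAC (9.79 to 41.3 CPM), and had a log2FC of −0.79.

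The mitotic kinases and the spindle checkpoint had 6 of 7 genes tested, with a median log2FC of −1.36 and 1 call. AURKB, the kinase of the chromosomal passenger complex, which corrects wrong attachments of the spindle, had the smallest padj of the G2/M genes. It was at 9.76 to 105 CPM in HGA (median 19.0), 80.6 to 178 CPM in primary AGASAC (median 107) and 122, 129, 169 and 99.7 CPM in the metastases. HGA 10 was the only HGA above the lowest AGASAC and was still below the AGASAC median, and the next HGA was at 36.3 CPM. The log2FC was −1.95 ± 0.34 (edgeR padj 0.000476). BUB1 and BUB1B, kinases of the spindle checkpoint, were highest in HGA 4 among the HGA, at 25.8 and 19.7 CPM, with HGA medians of 1.27 and 2.59 CPM and AGASAC medians of 14.7 and 7.29 CPM (log2FC −1.50 and −0.31). BIRC5 and CDCA8, partners of AURKB in that complex, had smaller log2FC of −0.70 and −0.11 and were not called.

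AURKA, the Aurora kinase of the spindle poles, was at 0.424 to 19.4 CPM in HGA (median 4.67) and 3.27 to 27.0 CPM in primary AGASAC (median 12.9), with 7 of 10 HGA above the lowest AGASAC and a log2FC of −1.35 ± 0.46 (edgeR padj 0.177, or 0.0146 without HGA 10). PLK1, the Polo kinase that acts from mitotic entry to cytokinesis, was at 0 to 17.2 CPM in HGA (median 3.99) and 5.42 to 32.98 CPM in primary AGASAC (median 13.1), with HGA 10 and HGA 4 above the AGASAC median and a log2FC of −1.37 ± 0.51 (edgeR padj 0.318). In metastases 1 to 4, AURKA was at 9.08, 8.49, 26.4 and 16.0 CPM and PLK1 at 10.4, 11.1, 15.4 and 8.95 CPM. MELK, a kinase of mitotic cells, was at 0 to 22.4 CPM in HGA (median 2.73) and 3.02 to 7.69 CPM in primary AGASAC (median 5.23), and HGA 10 and HGA 4 lay above every AGASAC. Its log2FC was 0.00 (edgeR padj 1) with HGA 10 and −0.78 without it.

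KIF2C, a kinesin that takes spindle microtubules apart, had the largest log2FC of the 50 genes tested. It was at 0 to 10.7 CPM in HGA (median 0.641, with 0 counts in 4 of 10), 3.61 to 29.3 CPM in primary AGASAC (median 10.4) and 9.41, 13.8, 11.3 and 6.71 CPM in the metastases. HGA 8 was its highest HGA, above HGA 10. The log2FC was −2.53 ± 0.69 (edgeR padj 0.0411), close to the threshold, and it lost the call with another filter on low counts (padj 0.0683 without a filter). HMMR, a spindle protein that also binds hyaluronan, was at 1.09 to 20.2 CPM in HGA (median 5.41) and 8.62 to 48.7 CPM in primary AGASAC (median 18.4), with HGA 4, HGA 8 and HGA 10 above the lowest AGASAC and a log2FC of −1.74 ± 0.46 (edgeR padj 0.0303). TPX2, which starts microtubules at the chromosomes, and KIF11, the kinesin that pushes the spindle poles apart, were highest in HGA 10 among the HGA, at 33.5 and 23.7 CPM, with HGA medians of 4.99 and 1.66 CPM and AGASAC medians of 18.7 and 11.1 CPM. Their log2FC of −1.28 and −1.33 were not called. NUSAP1, by contrast, was at 105 to 227 CPM in HGA (median 163) and 115 to 238 CPM in primary AGASAC (median 158), and its log2FC was −0.04.

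At the kinetochore, where the spindle grips the centromere, 7 of 7 genes were tested with negative log2FC (median −0.96) and 0 were called by edgeR. Of these, 5 had an unadjusted p under 0.05 (edgeR), beside 6477 of all 12070 genes. DESeq2 called 1, CENPE, a kinesin that carries chromosomes to the spindle's middle (edgeR log2FC −1.38 ± 0.39, edgeR padj 0.0542). NUF2, part of the NDC80 complex that binds microtubules, had 0 counts in 4 of 10 HGA and reached 27.1 CPM in HGA 10 (HGA median 1.53), against 6.86 to 29.8 CPM in primary AGASAC (median 22.8). HGA 10 and HGA 4 were above the lowest AGASAC, and the log2FC of −1.95 ± 0.71 was not called (edgeR padj 0.269) until HGA 10 was left out (−3.14, padj 0.00329). NDC80, its partner, had a smaller log2FC of −0.96. CENPF, a large kinetochore protein that peaks in G2, stood at 126 CPM in HGA 10 and at 15.8 CPM or less in the other HGA, and CENPA, the centromere histone, had a narrow range in HGA (10.8 to 32.0 CPM, median 16.5) beside 15.8 to 67.5 CPM in primary AGASAC (median 22.9). Their log2FC were −1.23 and −0.63.

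Of the 6 cytokinesis genes, 5 were tested and RACGAP1 was called. RACGAP1 and ECT2 work together at the midzone of the spindle to start the contractile ring. RACGAP1 was at 0 to 18.5 CPM in HGA (median 2.97), 5.23 to 31.5 CPM in primary AGASAC (median 14.1) and 13.3, 15.7, 20.3 and 18.8 CPM in the metastases, with HGA 10 the only HGA above the lowest AGASAC and a log2FC of −1.91 ± 0.51 (edgeR padj 0.0344). ECT2 was at 0 to 11.7 CPM in HGA (median 1.63, with 0 counts in 3 of 10), 4.45 to 27.0 CPM in primary AGASAC (median 13.9) and 13.6, 10.6, 11.6 and 12.1 CPM in the metastases. No HGA reached the AGASAC median of ECT2, although its log2FC of −2.07 ± 0.61 missed the call (edgeR padj 0.0766) and passed with DESeq2 (padj 0.0215). PRC1, ANLN and KIF23, which bundle the midzone, build the ring and carry RACGAP1 there, had log2FC of −0.26, −0.36 and −0.30.

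Low expression sets a limit on these comparisons. The number of the 58 genes at 0 counts was 17 in HGA 9, 10 in HGA 2 and HGA 3 and between 2 and 7 in the other HGA except HGA 10, where it was 0. It was at most 1 in each primary AGASAC and 0 in each metastasis. The HGA also differed in depth. HGA 6 and HGA 1, with 2 and 3 genes at 0, had 5914236 and 6389555 counts. HGA 9, HGA 2 and HGA 3 had 2491827, 2472919 and 1943367 counts. The other way, HGA 4 had the fewest counts (1562347) with 5 genes at 0, and HGA 10 had 2525485 with 0. The part of depth in these numbers was not tested. Of the 58 genes, 8 were left out by the filter on low counts in the primary tumors, GINS2, CDT1, CDC45, MKI67, CCNA2, TTK, KIF20A and CDC25C, and the statements on direction do not cover them. Among these, CDC45 (14.8 CPM), CCNA2 (19.1 CPM) and KIF20A (17.2 CPM) were highest in HGA 4 among the HGA, and the other 5 in HGA 10. TTK, a checkpoint kinase, and KIF20A, a kinesin of cytokinesis, had AGASAC medians of 4.19 and 4.13 CPM.

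The genes of a class did not all vary together among tumors. Spearman's rho of each gene with the summed level of the rest of its class was taken over the 21 primary tumors, after the mean of each tumor type was subtracted, as a description of points that share libraries and depth. Its median was 0.54 (−0.22 to 0.82) over 20 S phase genes and 0.63 (−0.27 to 0.89) over 30 G2/M genes. UBE2C (0.89), TOP2A (0.89), PLK1 (0.88) and CDC20 (0.83) followed the G2/M sum most closely, and PCNA (0.82) and RRM2 (0.74) the S phase sum. CCNE1 (−0.22) and NUSAP1 (−0.26) had a negative rho over all tumors and within each tumor type. The sign was not the same in both types for PRC1 (−0.71 in HGA and 0.35 in primary AGASAC), FOXM1 (−0.27 and 0.81) and MELK (0.73 and −0.28). It also differed for KIF2C (−0.01 and 0.45) and CENPF (−0.03 and 0.68), whose rho in HGA was small. AGASAC primary 3 was the highest primary AGASAC in 12 of 20 S phase and 11 of 30 G2/M genes.

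Depth, RNA quality and markers of other cell types were set beside the levels of HGA 10 and HGA 4. HGA 4 had the fewest counts of all samples (1562347) and a DV200 of 82.4%, and HGA 10 had 2525485 counts and a DV200 of 72.8%, within the range of the other HGA. Of the 7 germinal centre B cell markers, BCL6 was at 928 CPM in HGA 10, beside 54.8 to 169 CPM in the other HGA and 76.0 to 204 CPM in primary AGASAC, and made up nearly all of the summed 937 CPM, while RGS13 and GCSAM were at 0 in HGA 10. The 8 B cell markers summed to 9.89 CPM in HGA 10 and 6.15 CPM in HGA 4, beside 6.15 to 67.0 CPM over HGA (highest in HGA 8) and 13.4 to 41.6 CPM in primary AGASAC, and MS4A1, CD79A and CD79B were at 0 in both of these HGA. The 8 T cell markers summed to 16.3 and 5.53 CPM in HGA 10 and HGA 4, beside 2.45 to 54.2 CPM over HGA and 17.3 to 123 CPM in primary AGASAC, and the 5 plasma cell markers to 55.9 and 5.53 CPM, beside 5.53 to 106 CPM over HGA and 30.6 to 200 CPM in primary AGASAC. The 7 macrophage markers summed to 215 and 163 CPM in HGA 10 and HGA 4 (77.2 to 319 CPM over HGA, 168 to 499 CPM in primary AGASAC), the 6 fibroblast markers to 1856 and 2432 CPM (1208 to 5667 CPM, 1001 to 7884 CPM) and the 5 endothelial markers to 182 and 344 CPM (182 to 512 CPM, 48.2 to 221 CPM). The share of the cell cycle RNA that came from immune or stromal cells was not tested.

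In the metastases versus the primary AGASAC of the same 4 dogs, most G2/M genes were a little higher in the metastasis in dogs 1, 2 and 4 and were not so in dog 3. On the log2(CPM + 1) scale, 30, 28, 16 and 27 of the 33 G2/M genes tested were higher in the metastasis of dogs 1 to 4, with medians of 0.60, 0.50, −0.02 and 0.74. Of the 23 S phase genes, 14, 19, 9 and 17 were higher, with medians of 0.10, 0.40, −0.06 and 0.45. Dog 3 is the dog of the primary tumor with the highest sums, and its metastasis was in turn the highest of the 4 for the G2/M genes.

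**Figure D4:**
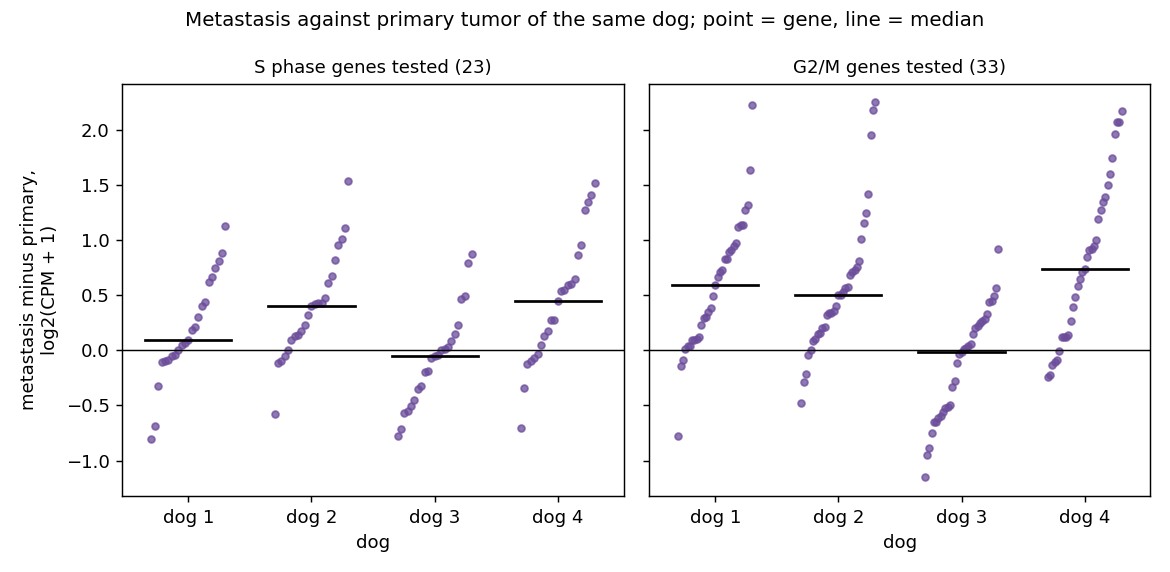
Difference between the metastasis and the primary AGASAC of the same dog, in log2(CPM + 1), for the S phase genes (left, 23 genes) and the G2/M genes (right, 33 genes) that were tested, with a point for each gene, sorted within a dog, and a line at the dog's median. The G2/M medians are above 0 in dogs 1, 2 and 4 (0.60, 0.50 and 0.74) and near 0 in dog 3 (−0.02).

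No gene of the 58 was called between metastases and primary AGASAC, and 0% of the 12629 genes tested were (edgeR's quasi-likelihood test, 4 against 4, no dog term). At an unadjusted p under 0.05 were 1 S phase gene (CCNE2), 0 G2/M genes and 145 of all genes, and DESeq2 called 0 of the 58 and 5 of all genes. With the dog as a block, which removes what a dog's tumors share, 0 of the 58 and 1 gene outside them were called, while 2 S phase and 6 G2/M genes had an unadjusted p under 0.05, all higher in the metastasis, beside 491 of all genes, of which 275 were higher. UBE2C had the smallest of these p (blocked log2FC 0.79 ± 0.23, edgeR padj 1), and its metastasis minus primary differences were 0.67, 0.57, 0.44 and 1.39 in dogs 1 to 4.

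In 4 of 4 dogs the metastasis was higher in 9 of 33 G2/M genes (27.3%) and 1 of 23 S phase genes (4.35%), beside 6.73% of all genes tested. The 9 genes were CCNB1, CCNB2, AURKA, AURKB, KIF23, CDCA8, UBE2C, NUF2 and ANLN, and the S phase gene was MCM4. The genes of a class vary together, so these counts do not come from independent genes. The median log2FC of the fit without the dog was 0.06 for the S phase and 0.34 for the G2/M genes, and the latter ranged from 0.11 without metastasis 3 to 0.96 without AGASAC primary 3.

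A lymph node holds dividing lymphocytes of its own, and lymphoid markers were read in the metastases. The 8 T cell markers summed to 48.3, 55.7, 75.3 and 55.0 CPM in metastases 1 to 4 and to 28.03, 29.7, 24.9 and 45.0 CPM in the primary tumors of the same dogs, and 7 of 7 T cell markers tested had a positive log2FC (median 0.56, 0 called by edgeR or DESeq2, 3 at an unadjusted p under 0.05). The 8 B cell markers summed to 44.8, 21.2, 29.3 and 29.4 CPM in the metastases and 41.6, 19.6, 13.6 and 16.1 CPM in the primary tumors. Of the 7 germinal centre markers, RGS13 was at 0 in every metastasis, and the summed level of 104 to 207 CPM was largely BCL6 (55.6 to 181 CPM). The luminal epithelial markers were at 3458 to 5982 CPM in the metastases, as high as in the primary tumors. The part of lymphoid cells in the small differences of the G2/M genes was not tested.

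In HGA versus the metastases, few cell cycle genes were called, although most had a negative log2FC. This comparison uses the same 10 HGA as the one with the primary AGASAC and is not independent of it. Of the genes tested, 16.1% were called and 7.69% were called as lower in HGA, and the calls among the cell cycle genes were MCM6 (log2FC −1.73, edgeR padj 0.00261), 1 of 22 S phase genes, and AURKB (log2FC −2.13, edgeR padj 0.0241), 1 of 33 G2/M genes. The log2FC of HGA relative to the metastases was negative in 18 of 22 S phase and 32 of 33 G2/M genes, with medians of −0.996 and −1.34. Without HGA 10, 6 S phase and 7 G2/M genes were called, beside 2588 of all genes (2124 with it), and without metastasis 1, 2 or 3, AURKB was no longer called and the count of G2/M genes was 0. DESeq2 called 7 S phase and 4 G2/M genes, all lower in HGA, beside 3028 of all genes, of which 1400 were lower.

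Hepatoid glands respond to sex hormones, and the HGA came from 6 intact and 4 neutered dogs. The S phase genes summed to 377 to 1161 CPM (median 401) in HGA of intact dogs and to 489, 650, 548 and 1577 CPM in HGA 1, 2, 8 and 10 of neutered dogs. The G2/M genes summed to 255 to 672 CPM (median 348) and to 451, 414, 380 and 1186 CPM. No gene of the 58 and 0% of the 11906 genes tested were called by edgeR, with 3 of 17 S phase and 5 of 21 G2/M genes at an unadjusted p under 0.05 beside 1167 of all genes, and DESeq2 called 0 of the 58 and 20 of all genes. The median log2FC of intact relative to neutered was −0.62 for the S phase and −0.91 for the G2/M genes and became −0.14 and 0.13 without HGA 10, so the direction of the G2/M genes rested on that tumor.

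Primary AGASAC with a sampled metastasis (tumors 1 to 4) had S phase sums of 794, 584, 1086 and 551 CPM and G2/M sums of 654, 687, 1354 and 576 CPM. Those without one (tumors 5 to 11) had 430 to 877 CPM (median 748) and 560 to 1103 CPM (median 921), and 3 of the 4 with a metastasis were below the G2/M median of the others and AGASAC primary 3 was above all of them. No gene of the 58 and 0.00755% of the 13242 genes tested (1 gene) were called by edgeR, with 2 S phase and 0 G2/M genes at an unadjusted p under 0.05, and DESeq2 called 0 of the 58 and 16 of all genes. The median log2FC of those with relative to those without was 0.12 for the S phase and −0.28 for the G2/M genes, and −0.24 and −0.90 without AGASAC primary 3. AGASAC primary 1 to 3 are in the first naming series of the files (that of primary 4 is unknown) and primary 5 to 11 in the second, so this comparison and the naming series cannot be told apart. No metastasis being sampled does not say that a dog had none.

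Other genes of the same processes, taken from lists apart from the 58, were also mostly lower in HGA than in primary AGASAC by their log2FC. Of 54 other G2/M genes, 46 were tested, 45 had a negative log2FC (median −1.15), 10 were called lower in HGA and 0 higher. That was 21.7% of those tested. Over all 12070 genes tested, 12.5% were called lower in HGA and 25.1% either way. HMGB2, a chromatin protein of cycling cells, had the largest of these differences (log2FC −4.14 ± 0.39, edgeR padj 8.15e-08), followed by KIFC1, a kinesin that clusters centrosomes (log2FC −2.62 ± 0.48, edgeR padj 0.000841). Of 43 other S phase genes, 34 were tested, 28 were negative (median −0.64), 3 were called lower and 2 higher. With 14.7% called either way, these S phase genes were below the share of all genes. E2F8, an E2F that represses the S phase program, was among those higher in HGA (log2FC 1.80 ± 0.48, edgeR padj 0.0351).

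The cyclin D genes and CDK inhibitors, which act in G1 before the 58 genes, moved in both directions. Of 16 genes in the list, 15 were tested, 4 were called higher in HGA and 1 lower (median log2FC 0.14). That was 33.3% of those tested, beside 25.1% of all genes. CCND1 was lower in HGA (log2FC −3.38 ± 0.37, edgeR padj 9.41e-07) and CCND2 higher (log2FC 3.66 ± 0.42, edgeR padj 1.66e-06), both D cyclins that activate CDK4 and CDK6. The other 3 genes called higher, CCND3, CDK6 and the CDK4 inhibitor CDKN2B, had log2FC of 3.104, 2.43 and 3.14, so HGA held more CCND2 and CCND3 and primary AGASAC more CCND1.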

How the data were processed

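The authors sequenced 3′ libraries (QuantSeq) of 25 FFPE samples of canine tumors, trimmed the reads with cutadapt, aligned them to CanFam3.1 with STAR and counted them with featureCounts, in a second round on gene models extended at their 3′ end, splitting a read with several locations evenly among them (versions not given in the sources used here). The deposited values used here are whole counts of reads per gene. The 25 columns of the authors' normalized counts and their columns of fold changes and p-values were not used. Since reads were split among like locations, members with near-identical copies may have gained or lost reads, which was not tested.

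Counts were tested with edgeR 4.0.16 (quasi-likelihood, TMM, its filter on low counts) in R 4.3.3, with DESeq2 1.42.0 as an alternative, in 5 comparisons: HGA (10) versus primary AGASAC (11), metastases (4) versus the primary AGASAC of the same dogs (4), HGA versus metastases, intact versus neutered HGA, and primary AGASAC with versus without a sampled metastasis. A call needed an adjusted p no higher than 0.05 by Benjamini-Yekutieli over all genes tested and a log2FC of at least 1 in size. SE was taken as the log2FC over the square root of F, which cannot be relied on at a log2FC near 0 and is left out for MELK and FOXM1. CPM were scaled by TMM over the 25 samples. Per the study, replicates are tumors of separate dogs, except that each metastasis shares its dog with a primary. Tumors of the same dog deviated together (correlations of 0.730, 0.517, 0.572 and 0.428 for dogs 1 to 4), so the dog was also fitted as a block. No 2 samples of a group had counts within sampling noise of each other. The limits given for genes at 0 counts cover counting error only.

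The genes named with full statistics are 13 well-known members (MKI67, TOP2A, PCNA, MCM2, CCNB1, CDK1, AURKA, PLK1, FOXM1, E2F1, CCNE1, TYMS and RRM2), the 5 S phase and 7 G2/M genes with the largest log2FC in size and the 2 of each class with the smallest, members called in another comparison, and the 2 called genes of each other list with the largest log2FC. Other members, MCM3 among them, were named after their values were seen. The 58 members and the other lists (other S phase and G2/M genes, cyclin D and CDK inhibitor genes, and markers of epithelia, B, germinal centre, T and plasma cells, macrophages, fibroblasts and endothelium) were chosen with earlier results of these data known. Alternatives were DESeq2, other normalizations and filters, Benjamini-Hochberg adjustment, no log2FC threshold, extraction batch, naming series of the files, blocks and leaving out each sample in turn. The extraction batch and naming series come from the study's sample lists. The script was tested on simulated counts. Some genes of the other lists are not reported here.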

Additional observations from a re-analysis of the deposited data

Results flagged for a closer look

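The summed levels and the named genes were searched for a sample that lay far from its own group, in the 10 HGA and in the 4 metastases. Of the 56 groups searched, 16 held such a sample. The limit used is passed by chance in about 1 in 20 groups only if the values are normally distributed. CPM were not log-transformed here and are skewed toward high values in many of these genes. The count of 16 therefore cannot be set against that rate, and the flags serve as a description. Of the 16, 14 were HGA 10, so they are not independent of each other. HGA 10 lay above the rest of HGA in the G2/M sum (1186 CPM, next 672 CPM) and in MKI67 (9.89 CPM), MCM2 (30.1 CPM), MCM5 (39.6 CPM), E2F1 (12.9 CPM), CDC6 (13.3 CPM), TYMS (117 CPM), RRM2 (83.9 CPM), AURKA (19.4 CPM), AURKB (105 CPM), NUF2 (27.1 CPM), RACGAP1 (18.5 CPM), CDC20 (41.7 CPM) and MELK (22.4 CPM). HGA 8 lay above the rest of HGA in KIF2C (10.7 CPM, next 5.59 CPM in HGA 10). Metastasis 3 lay above the other 3 metastases in the G2/M sum (1291 CPM, next 877 CPM).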

How the results depend on the processing

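No called value changed sign under any alternative that was run. In HGA versus primary AGASAC (4 S phase and 5 G2/M genes called), the S phase count was 7 with DESeq2, with Benjamini-Hochberg, with all 15 AGASAC samples and with the extraction batch as a term, and 0, 0 and 0 within batches 5, 6 and 8. All genes called were 3032 in the main fit, 4349 with DESeq2 and 3725 with Benjamini-Hochberg, so the count over all genes also rose with these 2 alternatives. The G2/M count was 12 with Benjamini-Hochberg, 16 with the batch, 0, 0 and 1 within batches 5, 6 and 8, and 3 within the first naming series. The median log2FC of the S phase genes was −1.48 within batch 8 and −1.30 within the first naming series. Counts over all genes were 262, 637 and 338 within the 3 batches, which hold 5 or 6 tumors each. HGA and primary AGASAC share only sample numbers, and with the number as a replicate block 3 G2/M genes were called. In the metastases versus their primaries, all genes called went from 0 to 5 with DESeq2 and 1 with the dog as a replicate block, and the block changed no call of the 58. In HGA versus metastases (1 and 1), the S phase count was 7 with DESeq2, 4 with library size alone and 6 with Benjamini-Hochberg, the G2/M count 4, 2 and 4, and all genes 3536 with Benjamini-Hochberg. In intact versus neutered HGA, all genes called were 20 with DESeq2, 1 without a filter and 1 with Benjamini-Hochberg. In primary AGASAC with versus without a metastasis they were 16 with DESeq2 and 0 with the batch. The log2 ratio of the group medians, −0.56 for the S phase and −1.28 for the G2/M sum, became −1.11 for the S phase genes with the mean of log2(CPM + 1), and −1.24 and −1.90 with the mean of log2(CPM + 0.5), scales on which PCNA and NUSAP1 weigh as much as any gene.

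Leaving out each sample in turn gave 4 to 8 S phase and 2 to 14 G2/M calls in HGA versus primary AGASAC, with the highest counts without HGA 10. Leaving out gave 1 to 6 and 0 to 7 in HGA versus metastases. The median log2FC of the G2/M genes ranged from 0.11 to 0.96 in metastases versus their primaries, from −1.33 to 0.13 in intact versus neutered HGA and from −0.90 to −0.082 in primary AGASAC with versus without a metastasis, where that of the S phase genes ranged from −0.24 to 0.26. All genes called ranged from 0 to 1 in intact versus neutered HGA. The cause of these changes was not tested. Motifs in promoters were not run. At this depth genes such as MKI67 stayed near the limit of 3 counts, and 8 members could not be tested.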

Other observations

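The genes outside the 58 whose levels followed the G2/M sum most closely over the 21 primary tumors, after the mean of each tumor type was subtracted, were SMC2 (Spearman's rho 0.84), CDCA5 (0.83), LOC100683650 (0.83), MTFR2 (0.82), NCAPG (0.81), GLT8D1 (0.81), SPC24 (0.80), CDC25B (0.80), ESPL1 (0.80) and TUBB (0.79). Of these 10 genes, 6 are in the list of other G2/M genes. SMC2 and NCAPG are condensin subunits, which compact chromosomes, and ESPL1 is separase, which cuts the cohesin that holds sister chromatids. These values describe tumors that share libraries and depth, and they carry no test.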
